A study of Saccharomyces cerevisiae with 16 samples.

Results

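Lys14 is the zinc cluster transcription factor that activates lysine synthesis genes in budding yeast (Saccharomyces cerevisiae), and its binding was profiled across the genome by the calling-card assay in 1 library, 1 of 16 in the series. In this assay the factor is fused to Sir4, a silencing protein to which the Ty5 integrase is drawn, and new copies of the Ty5 retrotransposon then mark the DNA that the fusion occupied. The library came from a strain labelled BY4741 in which SIR4 and the chromosomal LYS14 gene were both deleted. Per the labels, the tagged factor was carried on a plasmid under the ADH1 promoter, a second plasmid held Ty5 under the galactose-inducible GAL1/10 promoter, and the DNA was cut in 3 separate digests before inverse PCR. The 11 other factor libraries used for comparison (Gal4, Leu3, Yrm1, Yrr1, Tea1, Cat8, Cha4, Put3, Urc2, Hal9 and Aro80) carried the same deletion of SIR4, the deletion of their own factor gene and the matching tagged factor. With 1 library per group there is no replicate error, and each test compares this library with a background set or with another library, not conditions. The 95% intervals given throughout cover counting error only.

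Yeast makes lysine from 2-oxoglutarate and acetyl-CoA through 2-aminoadipate, a fungal route that shares the chemistry of its early steps with the citric acid cycle. Lys14 binds DNA through a zinc cluster domain, and it activates LYS genes when the pathway intermediate 2-aminoadipate semialdehyde is present. Lysine itself inhibits homocitrate synthase, the entry enzyme, and so lowers that intermediate.

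All 4740 nuclear regions between neighbouring genes in the Lys14 table were tested. Of 23780 insertions in the library, 18181 lay in these regions (76.5%, 75.9 to 77.0), against 54072 of 84109 background insertions (64.3%). A single insertion is worth 4.21 per 100000, and 1835 regions held none, which allows up to 12.6 insertions per 100000 in each. The fold is the share of all library insertions that fell in a region over the share of all background insertions there. A region is called enriched at an adjusted p under 0.05 (two-sided Fisher's exact test with Benjamini-Hochberg adjustment over all regions), a fold of at least 2 and at least 5 insertions. Regions are named by their flanking genes, and positions are those of the deposited table, where a region runs from the last base of the left gene to the first base of the right gene. The submitters' processing notes name sacCer2, but both edges of 99.4% of regions equal gene ends of the R64 assembly, so the build behind the positions is uncertain.

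Lys14 insertions were concentrated in a small set of promoters, led by the genes of lysine synthesis and the lysine permease gene. In total 48 regions were enriched (1.01% of all regions) and together they held 5853 insertions, 24.6% of the library (24.1 to 25.2) against 1.81% of the background. The first of them by insertions, YDL183C/LYS20, alone held 6.62% of the library (6.31 to 6.95), the top 5 held 15.1% and the top 10 held 18.9% (18.4 to 19.4). Of these 10 regions 8 were lysine synthesis promoters, and the other 2 held the promoters of LYP1 and CAR1. Over the 48 regions the median was 40 insertions and a fold of 7.26. A fold of 50 or more was found for 6 of them, 13 lay between 10 and 50, 10 between 5 and 10, and 19 below 5. The 4692 remaining regions pooled to 0.830-fold (0.814 to 0.846). Another gene lay inside 17 of the 48 enriched regions, and inside 19.0% of all regions. In such regions the insertions cannot be assigned to 1 promoter. The same holds for the 17 enriched regions between divergent genes, which carry the promoters of both flanking genes. Among them are the regions of LYS20, LYS4, LYS1, ARO8 and CAR1.

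**Figure D1:**
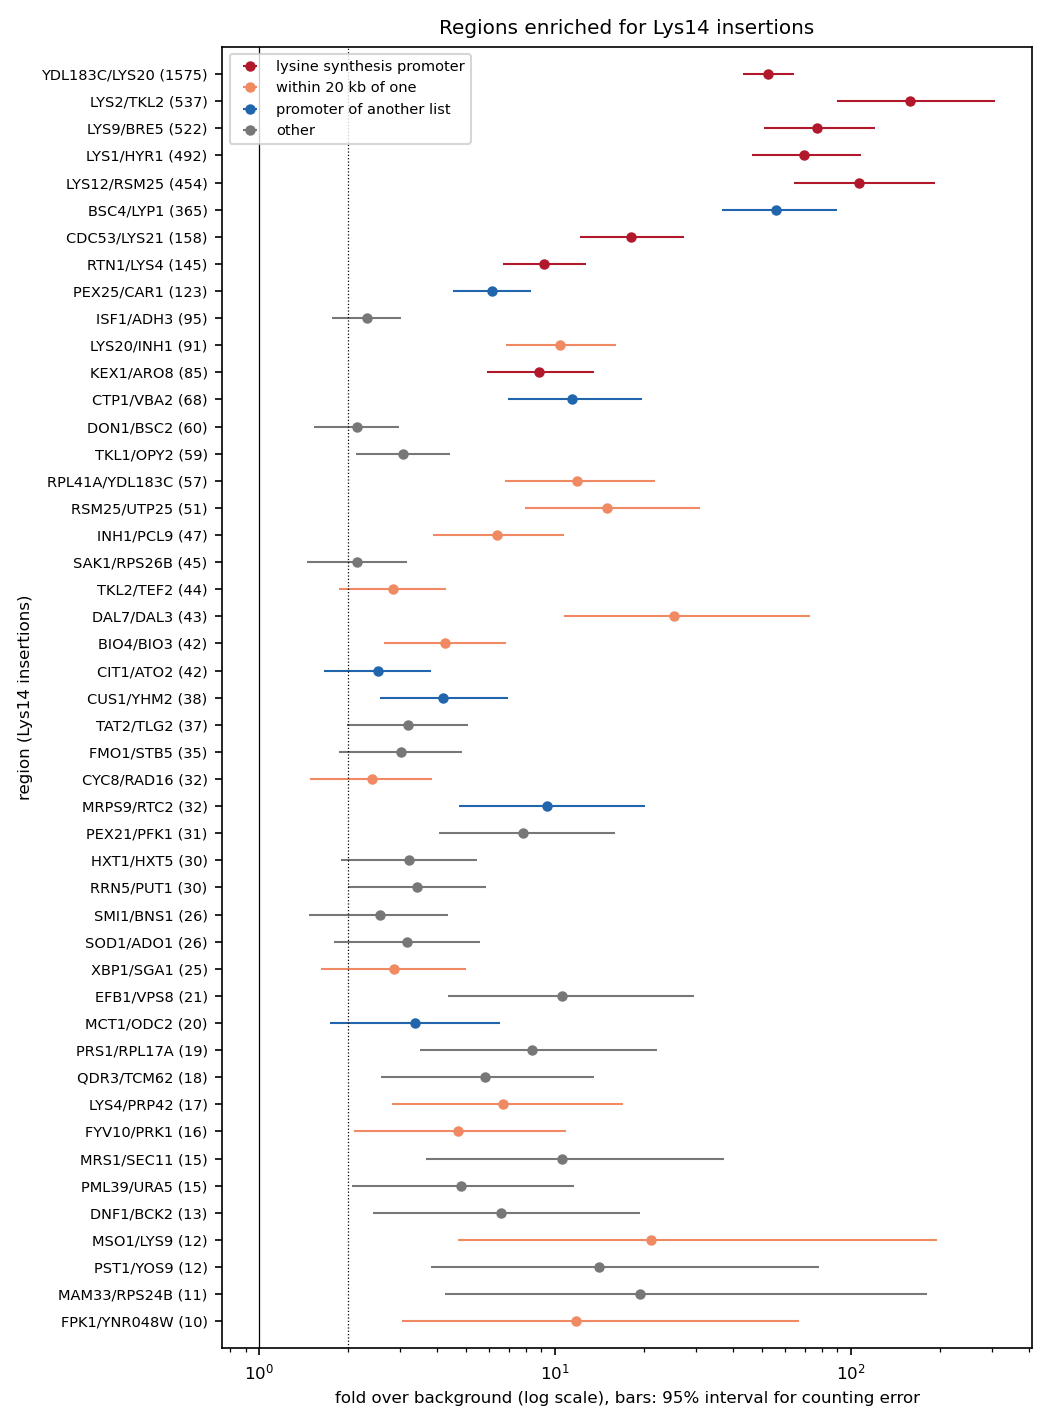
Of the 48 enriched regions, 47 ordered by their Lys14 insertions (number in parentheses), with the fold over background on a log scale and bars for the 95% interval of counting error; the solid line marks a fold of 1 and the dotted line a fold of 2. Colours mark lysine synthesis promoters (red), regions within 20 kb of one (orange), promoters of another list (blue) and others (grey); the red points and BSC4/LYP1 all lie among the first 12, with folds from 8.84 (KEX1/ARO8) to 158 (LYS2/TKL2).

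The lysine list covered 11 genes, of which 10 had a promoter region in the table and 9 of these were enriched. Pooled, the 10 regions held 4080 Lys14 insertions and 333 background insertions, a fold of 43.3 (38.7 to 48.6), and their median fold was 35.3 against 0.589 over all regions with a background insertion. These promoters held 17.2% of the library (16.7 to 17.6) and 69.7% of all insertions in enriched regions. Within the list the counts ran from 0 insertions at LYS5 to 1575 at LYS20.

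The entry step of the pathway is homocitrate synthesis, carried out by a pair of isozymes encoded by LYS20 and LYS21. YDL183C/LYS20 (chromosome IV 131833 to 133437) held 1575 insertions against 106 in the background, 52.6-fold (43.2 to 64.6). CDC53/LYS21 (chromosome IV 226751 to 227393) held 158 against 31, 18.0-fold (12.2 to 27.4). The interval of LYS21 lay wholly below that of LYS20, and per kb of region the counts were 246 and 983. The LYS20 region had rank 1 by insertions but rank 6 by fold. The regions ahead of it by fold held between 12 (LYS2/TKL2) and 25 (LYS1/HYR1) background insertions.

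The next steps turn homocitrate into 2-oxoadipate and included a weaker promoter, that of LYS4, and a strong one, that of LYS12. RTN1/LYS4 (chromosome IV 930357 to 931129), whose gene LYS4 encodes homoaconitase, held 145 insertions against 56, 9.16-fold (6.68 to 12.7). LYS12 encodes homoisocitrate dehydrogenase, and its promoter region LYS12/RSM25 (chromosome IX 187632 to 187990) held 454 against 15, 107-fold (64.2 to 193). In this region of 357 bp the density reached 1272 insertions per kb, the highest of the 48. The interval of LYS4 lay wholly below that of LYS12.

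The last steps lead from 2-oxoadipate to lysine. KEX1/ARO8 (chromosome VII 114664 to 116059), upstream of the aminotransferase gene ARO8, held 85 insertions against 34, 8.84-fold (5.88 to 13.6), and it contains the gene YNCG0004W. LYS2 encodes 2-aminoadipate reductase, and LYS2/TKL2 (chromosome II 473926 to 474392) held 537 against 12, 158-fold (89.9 to 308), the highest fold of all enriched regions. LYS9/BRE5 (chromosome XIV 715388 to 716780) and LYS1/HYR1 (chromosome IX 420736 to 423128) serve the genes of the 2 saccharopine dehydrogenases that finish the route. LYS9/BRE5, which also contains the gene SNR49, held 522 insertions against 24, 76.9-fold (51.1 to 121). LYS1/HYR1 held 492 against 25, 69.6-fold (46.6 to 109), and its 2391 bp also span the genes NRE1 and IRC24. The intervals of these last 2 promoters overlapped almost wholly.

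LYS5, whose product activates the Lys2 enzyme, shares LYS5/PEX14 with PEX14, and that region held 0 Lys14 insertions against 2 in the background, so a difference was not detectable at this depth (interval 0 to 18.8-fold). The LYS14 promoter has no region in the table. The region beyond the 3' end of LYS14 (MRH1/LYS14) held 1 insertion against 4.

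Genes that move lysine or store it in the vacuole formed the next group. Of 11 genes on this list 8 had a region, and 3 of the 8 were enriched. LYP1 encodes the lysine permease of the plasma membrane, and BSC4/LYP1 (chromosome XIV 138094 to 138550) held 365 insertions against 23, 56.1-fold (36.8 to 89.7), rank 6 by insertions and rank 5 by fold. CTP1/VBA2 (chromosome II 784572 to 787006) held 68 against 21, 11.5-fold (6.93 to 19.7). It is flanked by the genes of the mitochondrial citrate carrier Ctp1 and the vacuolar basic amino acid transporter Vba2, and it contains a further gene, YBR292C. MRPS9/RTC2 (chromosome II 536096 to 536575) held 32 against 12, 9.43-fold (4.73 to 20.1), and RTC2, also known as YPQ3, encodes a vacuolar membrane protein of the PQ-loop family. The other 5 regions lay between 0 and 1.54-fold, the last at the general amino acid permease gene GAP1 (30 insertions against 69), where the exact test gave an adjusted p of 0.995. The arginine permease gene CAN1 was at 0.943-fold (4 against 15). The region of the basic amino acid permease gene ALP1, which abuts BSC4 on the other side, is very short (chromosome XIV 137661 to 137699). It held 0 against 1, so a difference was not detectable there (interval 0 to 138-fold).

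Promoters of the citric acid cycle and of 2-oxoglutarate supply were enriched for 4 of the 17 regions on the list, and CTP1/VBA2 is counted here too. Besides it, CUS1/YHM2 (chromosome XIII 751240 to 751961) held 38 insertions against 32, 4.20-fold (2.56 to 6.94), where YHM2 encodes a mitochondrial carrier that exchanges citrate and 2-oxoglutarate. CIT1/ATO2 (chromosome XIV 631061 to 633008), with the promoter of the mitochondrial citrate synthase gene CIT1, held 42 against 59, 2.52-fold (1.65 to 3.80). That region also contains the genes SUF10 and YNCN0017W. MCT1/ODC2 (chromosome XV 757558 to 758330) held 20 against 21, 3.37-fold (1.73 to 6.53), and ODC2 encodes a mitochondrial carrier of 2-oxoadipate and 2-oxoglutarate. Its adjusted p of 0.0172 by Fisher's exact test became 0.0766 when only intergenic insertions were used as totals. ODC1, which encodes the related carrier, was at 2.78-fold (11 against 14, 1.14 to 6.59) and did not pass (adjusted p = 0.519, Fisher's exact test). The list's median fold was 1.03, and its 13 regions that were not enriched ranged from 0.322 to 2.78.

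The remaining lists of amino acid and nitrogen genes held a single enriched region. ARO8 was counted on the lysine list and not with the aromatic amino acid genes. The enriched regions of DAL7 and PUT1, described below, are on none of the lists. PEX25/CAR1 (chromosome XVI 338620 to 339944), with the promoter of the arginase gene CAR1, held 123 insertions against 71, 6.13-fold (4.54 to 8.33), and it was the only enriched region of 12 on the arginine list, which had a median of 0.674-fold. Its 1323 bp also contain the tRNA gene IMT2. None of 10 glutamate and nitrogen regions, 12 branched-chain amino acid regions, 19 aromatic amino acid and histidine regions or 16 sulfur amino acid and threonine regions was enriched, with pooled folds of 0.686, 0.971, 0.990 and 0.737. Among them GLN1, the glutamine synthetase gene, was at 0.407-fold (10 against 87) and GCN4, the activator of amino acid synthesis genes under starvation, at 0.567-fold (17 against 106). Neither difference passed (adjusted p = 0.273 and 0.864, Fisher's exact test). Some members of these lists stood lower, such as HOM3 at 0.186-fold (1 against 19). Neither lysyl-tRNA synthetase gene was enriched, with 0.943-fold over both (0.374 to 2.11). The list of zinc cluster factors held only factors studied in this series, and none of its 11 promoter regions was enriched (0.786-fold pooled, 0.458 to 1.29). STB5, another zinc cluster factor gene, is not on that list and is described below. At 1.01% of all regions enriched, lists of this size would hold less than 1 enriched region at the background rate.

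Enriched regions were also found next to the lysine promoters. Within 20 kb of the 9 enriched lysine promoters lay 148 other regions, of which 13 were enriched (8.78%), while 26 of the 4583 regions farther away were (0.567%). Within 5 kb 9 of 34 neighbours were enriched (26.5%). Together the 13 neighbours held 487 insertions, 2.05% of the library (1.87 to 2.24). The distance windows were chosen after these values were seen, and what sets the counts of the neighbours was not tested.

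Around LYS20 there were 3 such regions. LYS20/INH1, on the far side of the LYS20 gene, held 91 insertions against 31, 10.4-fold (6.84 to 16.2), and INH1 encodes an inhibitor of the mitochondrial ATP synthase. RPL41A/YDL183C held 57 against 17, 11.9-fold (6.80 to 21.7). INH1/PCL9, with the promoter of the cyclin gene PCL9 and the gene AIT1 inside, held 47 against 26, 6.39-fold (3.88 to 10.8). All 3 stood at a lower fold than the LYS20 promoter region itself.

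Around LYS12, RSM25/UTP25 held 51 insertions against 12 (15.0-fold, 7.91 to 31.0), FYV10/PRK1 held 16 against 12 (4.72-fold) and XBP1/SGA1 held 25 against 31 (2.85-fold). Near LYS9, MSO1/LYS9 held 12 against 2 (21.2-fold, 4.72 to 195), FPK1/YNR048W held 10 against 3 (11.8-fold) and the promoter shared by the biotin synthesis genes BIO4 and BIO3 held 42 against 35 (4.24-fold, 2.65 to 6.85), at a distance of 17.3 kb. MSO1/LYS9 lies at the 3' end of LYS9 and holds the promoter of MSO1. Near LYS2 were TKL2/TEF2 with 44 against 55 (2.83-fold) and CYC8/RAD16 with 32 against 47 (2.41-fold). DAL7/DAL3, 5.71 kb from LYS1, held 43 against 6 (25.3-fold, 10.7 to 72.9), and DAL7 encodes a malate synthase of allantoin breakdown. LYS4/PRP42 held 17 against 9 (6.68-fold, 2.82 to 17.0). Against the background of the Gal4 table MSO1/LYS9 was at 7.49-fold and FYV10/PRK1 at 2.91-fold, and the latter did not pass. CYC8/RAD16 and XBP1/SGA1 passed neither with that background nor with intergenic totals. Only 3 of these 13 regions, XBP1/SGA1, BIO4/BIO3 and CYC8/RAD16, lay more than 6 kb from the lysine promoter.

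Pooled over all regions at a given distance, enriched or not, the fold was highest nearest to the lysine promoters. It was 5.24 (4.45 to 6.18) in the 20 regions up to 2.5 kb away, 1.73 (1.28 to 2.32) in the 14 between 2.5 and 5 kb, 1.56 (1.33 to 1.83) between 5 and 10 kb, 1.14 (0.987 to 1.30) between 10 and 20 kb and 0.996 (0.882 to 1.12) between 20 and 40 kb. The median fold per region was 3.54 in the nearest group, then 0.707, 0.947, 0.954 and 0.634. Beyond 2.5 kb the typical region thus stood below 1, as it did over all regions with a background insertion (median 0.589). In the same 20 nearest regions the 10 other factor libraries that share this table layout ranged from 0.369 to 1.06. The neighbourhoods were not alike. Around the 5 lysine promoters with 454 or more insertions (LYS20, LYS2, LYS9, LYS1 and LYS12) the neighbours within 20 kb pooled to between 1.85-fold (1.48 to 2.31, LYS2) and 5.67-fold (3.98 to 8.15, LYS1). Around LYS21, LYS4 and ARO8, which held 158 or fewer, they pooled to between 0.712 and 1.09, and the interval of each included 1.

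**Figure D2:**
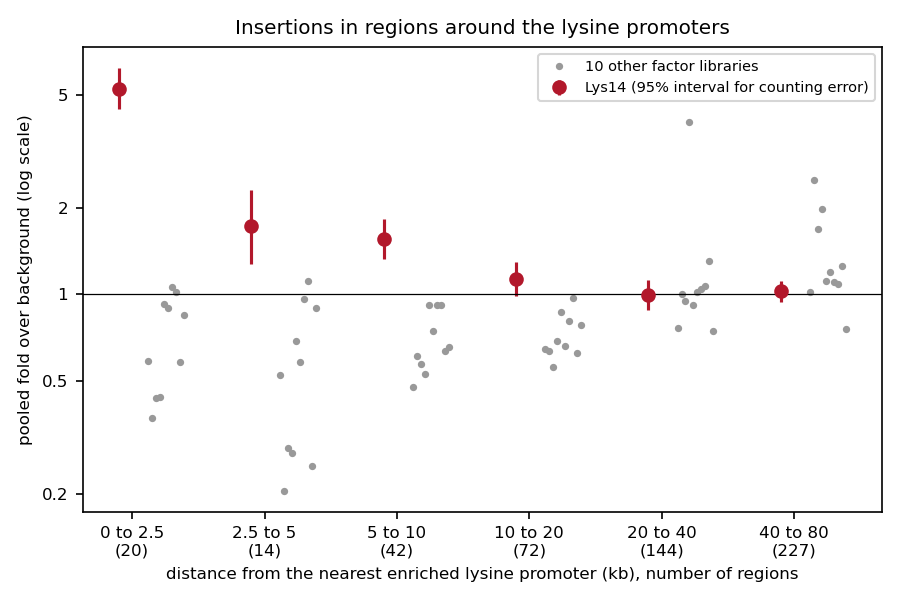
Pooled fold over background (log scale) of regions grouped by their distance in kb from the nearest of the 9 enriched lysine promoters, those promoters left out, with the number of regions in parentheses. The Lys14 value (bars: 95% interval for counting error) is 5.24 in the nearest group and 0.996 at 20 to 40 kb, and grey points give the 10 other factor libraries at the same regions, up to 4.01 at 20 to 40 kb (Tea1).

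Away from the lysine promoters and outside the lists, 19 enriched regions held 598 insertions together, 2.51% of the library (2.32 to 2.72), with folds from 2.14 to 19.5. Of these, 8 were also enriched for another factor by the same rule and 11 were not. The regions with the most insertions in this group had many background insertions too. ISF1/ADH3 held 95 against 145 (2.32-fold, 1.77 to 3.02), DON1/BSC2 60 against 99 (2.14-fold), TKL1/OPY2, with the promoter of the transketolase gene TKL1, 59 against 68 (3.07-fold) and SAK1/RPS26B 45 against 74 (2.15-fold). FMO1/STB5, which lies upstream of the zinc cluster factor gene STB5 and contains the gene ROF1, held 35 against 41 (3.02-fold). HXT1/HXT5, upstream of the hexose transporter gene HXT1, held 30 against 33 (3.22-fold), and SMI1/BNS1 held 26 against 36 (2.55-fold). TAT2/TLG2, with 37 against 41 (3.19-fold), was the only enriched region between convergent genes, and it contains the genes SUP3, YOL019W-A and TOS7. With intergenic totals ISF1/ADH3 (1.95-fold), DON1/BSC2 (1.80-fold), SAK1/RPS26B (1.81-fold) and SMI1/BNS1 missed the rule. Against the background of the Gal4 table HXT1/HXT5 was at 5.46-fold.

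The others in this group had fewer background insertions. PEX21/PFK1 held 31 against 14 (7.83-fold, 4.05 to 15.9), with the promoter of the peroxisomal import gene PEX21. EFB1/VPS8 held 21 against 7 (10.6-fold, 4.35 to 29.5), PRS1/RPL17A 19 against 8 (8.40-fold), QDR3/TCM62 18 against 11 (5.79-fold) and MRS1/SEC11 15 against 5 (10.6-fold). PML39/URA5, which carries the promoter of the pyrimidine synthesis gene URA5, held 15 against 11 (4.82-fold), and DNF1/BCK2 held 13 against 7 (6.57-fold). PST1/YOS9 with 12 against 3 (14.1-fold, 3.82 to 78.1) and MAM33/RPS24B with 11 against 2 (19.5-fold, 4.25 to 181) combined high folds with wide intervals. Against the background of the Gal4 table both were lower, at 3.50-fold and 3.43-fold, and neither passed. With that background EFB1/VPS8 was at 7.06-fold and QDR3/TCM62 at 3.28-fold, and both passed.

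The Lys14 regions were then set beside the 11 other factor libraries, to ask which of them differ between factors. By the same rule 36 of the 48 regions (75.0%) were enriched for Lys14 and for no other factor, 5 for 1 other factor and 7 for 2 or more. For 5 of the 36, among them YDL183C/LYS20, this covers 10 other libraries, since the Gal4 table does not list them. No other factor had more than 2.45% of all regions enriched, so being enriched for none of them is the usual state of a region. The share of all regions in that state was not counted, and the 75.0% is therefore not a measure of specificity. Between 1 and 5 of the 48 regions were shared with any single factor, most with Tea1, which had 115 enriched regions. SOD1/ADO1, with the promoters of the superoxide dismutase gene SOD1 and the adenosine kinase gene ADO1, was shared with 5 others (Leu3, Yrm1, Tea1, Cha4 and Hal9), and it held 26 Lys14 insertions against 29 (3.17-fold). With the background of the Gal4 table it was at 2.10-fold and did not pass. RRN5/PUT1, with the promoter of the proline oxidase gene PUT1, was shared with Put3, Gal4, Yrm1 and Yrr1. It was at 3.42-fold for Lys14 (30 against 31; 6.90-fold with the background of the Gal4 table) and at 115-fold for Put3, where it held 1004 insertions. Of all regions, Yrm1 had 2.45% enriched, Tea1 2.43%, Leu3 2.28%, Hal9 1.96%, Yrr1 1.92% and Gal4 1.83%. The shares were smaller for Aro80 (1.35%), Cat8 (1.22%), Urc2 (0.844%), Cha4 (0.549%) and Put3 (0.464%).

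Each region with at least 10 insertions in Lys14 and the other library together was compared between the 2 libraries by the same exact test, adjusted over all regions of that pair. All 9 enriched lysine promoters were higher in Lys14 than in each of the other libraries that list them. These 9 had passed the rule on the same Lys14 counts, which favours Lys14 here. LYS5/PEX14 of the list, with 0 Lys14 insertions, is not among them. YDL183C/LYS20 is not listed in the Gal4 table. The pooled fold of the lysine list in the other libraries ranged from 0.0876 (Gal4, 9 regions) to 1.26 (Urc2). The highest other fold at any of these promoters was 3.57 at LYS2/TKL2 (Urc2, 14 insertions), where Lys14 held 537. CDC53/LYS21 was also enriched for Leu3 (35 insertions, 2.63-fold), below Lys14 with an adjusted p of 1.89e-31 by Fisher's exact test.

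Among all 48 regions, which were chosen by their Lys14 counts and so favour Lys14 in this comparison, 25 were higher in Lys14 than in every other library that lists them. These were the 9 lysine promoters, 8 of their neighbours and 8 regions farther away. The last 8 were BSC4/LYP1, PEX25/CAR1, CTP1/VBA2, CUS1/YHM2, MRPS9/RTC2, PEX21/PFK1, EFB1/VPS8 and MRS1/SEC11. Of all regions tested in a pair, the share higher in Lys14 was 40.4% against Gal4, 10.9% against Leu3, 19.0% against Yrm1, 16.0% against Yrr1 and 11.1% against Tea1. It was 5.18% against Cat8, 6.63% against Cha4, 3.85% against Put3, 3.62% against Urc2, 8.09% against Hal9 and 8.51% against Aro80. The comparison with Gal4 is not like the others, because the Gal4 table has its own region edges. Of the Gal4 library 61.0% lay in its listed regions, against 76.5% for Lys14. How much of the Gal4 share comes from this was not tested.

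In 8 of the 48 regions Lys14 was lower than at least 1 other factor. They were ISF1/ADH3 and MCT1/ODC2 (Tea1), DON1/BSC2 (Cat8), SAK1/RPS26B (Yrm1 and Hal9), FMO1/STB5 and SOD1/ADO1 (Hal9), CYC8/RAD16 (Gal4) and RRN5/PUT1 (Gal4, Yrm1 and Put3). MCT1/ODC2 held 139 Tea1 insertions, 15.6-fold over background, against 20 for Lys14 (adjusted p = 8.81e-13, Fisher's exact test). ISF1/ADH3 held 504 Tea1 insertions, 8.19-fold. The share of tested regions lower in Lys14 was 14.8% against Gal4, 13.0% against Leu3, 14.4% against Yrm1, 12.5% against Yrr1, 14.3% against Tea1 and 7.88% against Cat8. It was 3.53% against Cha4, 2.49% against Put3, 3.94% against Urc2, 18.0% against Hal9 and 6.94% against Aro80. The limit given above for Gal4 holds here too. These shares are for 1 pair at a time. The share of all regions lower in Lys14 than in at least 1 other library was not counted, so the 8 of 48 cannot be called low or high.

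**Figure D3:**
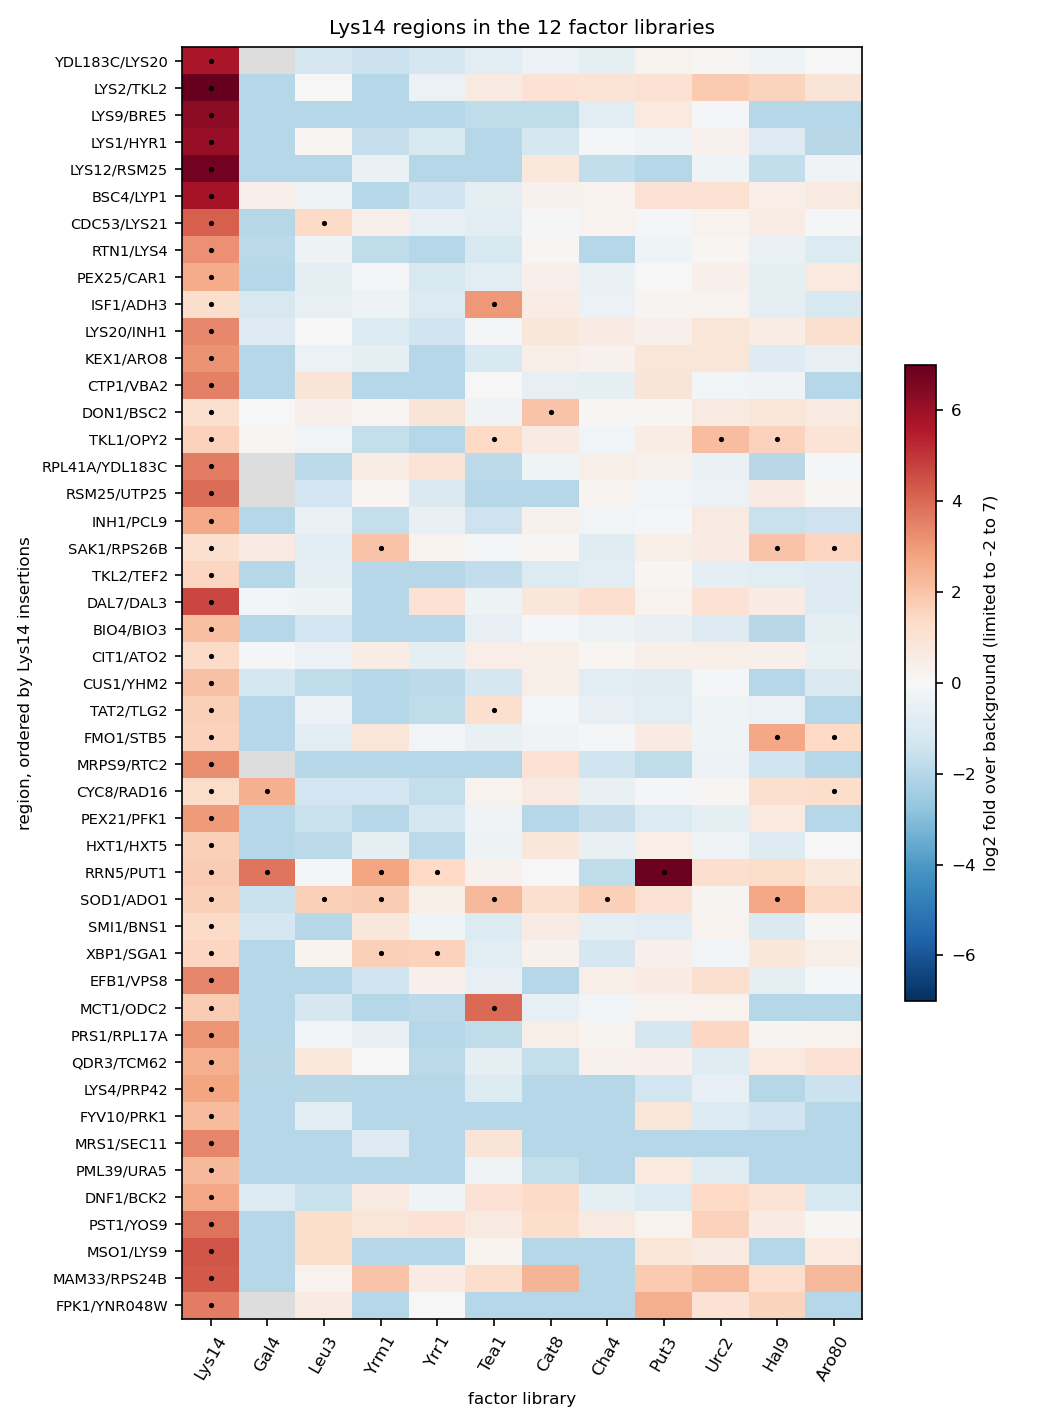
Fold over background as log2 (colour) of 47 of the 48 Lys14 regions in the 12 factor libraries, with regions ordered by Lys14 insertions. Black points mark regions enriched for that factor, and grey marks a region that is not in the Gal4 table or has no value. The highest values were set to the end of the colour scale. The lowest were set to a limit inside it, so a region without insertions does not take the lowest colour. In the rows of the lysine promoters Lys14 has the highest fold, and the next highest are Urc2 at LYS2/TKL2 (3.57) and Hal9 there (2.99); RRN5/PUT1 is strongest for Put3 (115-fold).

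By the orientation of their flanking genes, 30 of the 48 enriched regions were tandem, 17 divergent and 1 convergent, whereas all regions comprised 2299 tandem, 1219 divergent and 1222 convergent ones. Thus 1.30% of tandem and 1.39% of divergent regions were enriched against 0.0818% of convergent regions. Enriched regions were longer, with a median of 764 bp against 421 bp, and held more background insertions, with a median of 25.5 against 6. The exact test passes less readily where counts are low, as in short regions with few insertions. These medians are therefore not independent of the call. The minimum of 5 insertions did not shape them, since 48 regions were enriched without it too. The enriched regions lay on 14 of the 16 chromosomes. Within 30 kb of the outermost region of a chromosome lay 3 of them (6.25%), a share near the 5.23% of all regions. In the wider regions of the deposited table, whose margin is not stated, LYS12/RSM25 gained 81 insertions, BSC4/LYP1 82 and LYS2/TKL2 69, while the background gained 2, 18 and 7.

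The enriched regions with the lowest folds were DON1/BSC2 (2.14), SAK1/RPS26B (2.15) and ISF1/ADH3 (2.32). Just outside the rule stood SHC1/UBP9 (27 insertions against 42, 2.27-fold, adjusted p = 0.105), AIM29/ECM4 (24 against 35, 2.43-fold, adjusted p = 0.113) and DAL4/DAL2 (7 against 3, 8.25-fold, adjusted p = 0.128), all by Fisher's exact test. DAL4/DAL2 belongs to the same allantoin gene cluster as DAL7/DAL3. At the other end 6 regions were depleted (0.127% of all regions), at an adjusted p under 0.05 and a fold of 0.5 or less. The convergent TIM9/MMS21 held 0 insertions against 46 (interval 0 to 0.295) and FBA1/MPE1, with the promoter of the aldolase gene FBA1, held 0 against 40 (0 to 0.342). CYC3/CDC19, with the promoter of the pyruvate kinase gene CDC19, held 12 against 126 (0.337-fold, 0.170 to 0.609), RMD1/NTH1 held 4 against 79, TUP1/CSM1 2 against 51 and SPC25/ISC1 0 against 33. Folds are shares of a total, and the regions that were not enriched stood as a group at 0.830-fold.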

How the data were processed

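The authors deposited, per library, a table with a count of insertions per region between neighbouring genes in the library and in the background. Other columns, per the file headers, hold the fraction of all insertions that each region took, p-values of a hypergeometric and a Poisson test, and counts for wider regions. The submitters' processing notes name Novoalign and sacCer2, with no version. How reads became insertions is not given in the sources used here. The PCR carried no molecular tags, so intervals and limits for a count of 0 (3 insertions) cover counting error only.

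Totals were recovered from the deposited fractions, and 8 of 4748 listed regions, which are not nuclear, were left out. The Gal4 table has its own background (103922 insertions) and region edges, and was matched by flanking genes. Fisher's exact tests, Benjamini-Hochberg adjustment, exact conditional binomial intervals for folds and exact binomial intervals for shares used scipy 1.17.1, pandas 2.3.3 and numpy 2.4.6 under Python 3.11.15, and the calls were tested on simulated data. Figures used matplotlib 3.10.9. The tables and RefSeq's R64 gene table supplied gene names, and the latter also gave the genes inside regions. A gene's promoter is the region its 5' end faces, by the strand letter of its systematic name. All enriched regions, the lysine list and enriched members of the other lists are named. The exception is 1 enriched region of the lysine list, which is counted in totals but not reported here by itself. The lists, rules and named regions were chosen with earlier results of these data known. Binding-site sequences were not analysed here. The 4 Gal4 libraries with a further deletion were not used here.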

Additional observations from a re-analysis of the deposited data

How the results depend on the processing

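The 48 enriched regions numbered 30 when regions with another gene inside were left out and 25 when regions within 20 kb of a lysine promoter were left out, an alternative chosen after seeing the data, as was leaving out the LYS20 neighbourhood below. Under the 11 other alternatives the count ranged from 33 (a fold of at least 4) to 72 (the authors' Poisson p-value), and it was 41 of 4383 shared regions with the background of the Gal4 table (43 there with the background of the Lys14 table). The share of insertions in enriched regions, 24.6%, was 23.1% at a threshold of 0.001, 30.5% with intergenic totals and 5.30% without the 20 kb around lysine promoters. The pooled fold of the lysine list, 43.3, was 36.4 with intergenic totals and 32.4 without its 2 regions with the most insertions. The fold within 10 kb of lysine promoters, 2.60, was 2.06 without the LYS20 promoter as an anchor. The regions higher in Lys14 than in all 11 libraries, tested in each, numbered 21, then 22 with intergenic totals and 15 at a threshold of 0.001. With intergenic totals 7 named regions missed the rule (ISF1/ADH3, DON1/BSC2, SAK1/RPS26B, CYC8/RAD16, SMI1/BNS1, XBP1/SGA1 and MCT1/ODC2), and with the background deposited with Gal4 6 did (CYC8/RAD16, SOD1/ADO1, XBP1/SGA1, FYV10/PRK1, PST1/YOS9 and MAM33/RPS24B); none reversed, and 5 are not in the Gal4 table. Beyond what each alternative removes by construction, the cause was not tested. No paired analysis was possible because each group had 1 library. Depth limits the weak regions, where 1 insertion is worth 4.21 per 100000.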
